A study of Mus musculus with 72 samples.

Results

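The genes described here are targets and feedback inhibitors of the transcription factor NF-kappaB: Nfkbia, Tnfaip3, Nfkb1, Nfkb2, Relb, Birc3, Cd40, Cd83, Il18 and Il1b. They were chosen by symbol, with earlier results of these data known, so counts among them set beside all genes are a description. The array held 45101 probe sets. Of the 10 genes, 9 were represented by 18 probe sets that the platform annotation assigns to 1 of these symbols only. Nfkb1 was not analysed here. Per gene the brightest probe set on average was used, and the other probe sets served as a check. All 9 chosen probe sets exceeded the low-value threshold, 4.14 on the log2 scale, in all 72 arrays, and they stood among 12588 genes tested.

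NF-kappaB is a dimer of Rel family proteins that rests in the cytoplasm, bound by IkappaB proteins, until receptors for cytokines, microbial products or antigen activate the IkappaB kinase complex. In the canonical branch the kinase marks IkappaBalpha for destruction and the freed dimer enters the nucleus, where it induces genes of inflammation and survival together with the genes of its own inhibitors. The non-canonical branch processes the precursor protein encoded by Nfkb2, whose product pairs with RelB, and it is driven in B cells by receptors such as CD40 and the receptor for the cytokine BAFF. In blood these genes are used by B cells, monocytes and granulocytes.

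Whole blood was taken from the submandibular vein of female Balb/c mice that were 9 weeks old per the labels and that drank water with lead acetate trihydrate. The control, low-dose and high-dose groups received 0, 5 and 50 µg/mL for 2 weeks, and all groups then drank Pb-free water for 2 weeks of recovery. The exposure collection comprised 7 control arrays, 15 of the low dose and 15 of the high dose, and the recovery collection 7, 15 and 13. Dosed mice gave blood at both times, and whether the recovery controls were the mice of the first control collection is not stated in the labels. The comparisons address whether the dose of Pb went with different levels of these transcripts, and whether a difference was still measured after the recovery.

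Every pair of arrays correlated at 0.958 or more over all probe sets, and 0 pairs were identical. The width of the relative log expression, a measure of how far an array departs from the median array, exceeded 0.4 in 5 arrays of 4 groups. The 18S ribosomal RNA controls were brighter in the high-dose arrays after exposure (mean 7.79 ± 0.99, SD, n = 15, where low-dose arrays averaged 7.00 ± 0.86, SD, n = 15), and so were the hybridisation controls (10.51 ± 0.40 against 10.09 ± 0.35). The difference between 3' and 5' probe sets of Gapdh averaged between 0.53 and 0.56 in the groups after exposure and between 0.84 and 0.93 in those after recovery, so collection and any batch of RNA or array work cannot be told apart. Of the markers written for the blood cell types, 11 of 12 B cell, 12 of 12 monocyte, 10 of 12 neutrophil and 10 of 12 T cell genes were tested, against 6 of 12 genes typical of skin, muscle or salivary gland at the bleeding site.

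The promoters of the feedback inhibitors Nfkbia and Tnfaip3 are shown in full. Both genes were lower at the high than the low dose after exposure. In limma neither gene was called different from control at either dose (lowest adjusted p = 0.179, Tnfaip3 at the low dose). Both promoters also carry letters of the kB consensus, the DNA element that NF-kappaB dimers bind. RefSeq promoter windows of build GRCm38.p6 were on hand for 6 of the genes: Nfkbia, Tnfaip3, Nfkb2, Birc3, Il18 and Il1b. The 10-base consensus, named here and searched on both strands, occurred in the windows of 3 of these 6 genes, against 5.14% of 27025 genes with a window and 6.18% of the tested genes with one. A gene counted when any of its windows matched. The genes were chosen as NF-kappaB targets, so these shares are a description and no test. Capitals mark the matches in the 250 bases before the start. For Nfkbia (minus strand, chr12:55492648-55492897) the match is read on the opposite strand and begins 29 bases before the start.

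Nfkbia: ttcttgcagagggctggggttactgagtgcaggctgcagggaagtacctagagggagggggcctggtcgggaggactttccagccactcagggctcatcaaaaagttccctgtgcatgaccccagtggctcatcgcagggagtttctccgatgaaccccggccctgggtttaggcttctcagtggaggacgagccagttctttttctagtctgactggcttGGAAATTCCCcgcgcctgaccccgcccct

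For Tnfaip3 (minus strand, chr10:19015411-19015660) the first match begins 125 bases and the second 12 bases before the start, the second on the opposite strand. A second RefSeq window of Tnfaip3 held no match.

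Tnfaip3: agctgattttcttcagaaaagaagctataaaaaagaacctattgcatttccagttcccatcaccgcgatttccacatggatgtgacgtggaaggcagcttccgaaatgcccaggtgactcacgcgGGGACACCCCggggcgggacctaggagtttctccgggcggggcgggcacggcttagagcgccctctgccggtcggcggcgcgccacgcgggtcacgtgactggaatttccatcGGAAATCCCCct

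RefSeq gives 3 windows for Nfkb2, all on the plus strand, and each held a match. They are represented by short stretches around the matches. In the first window these are chr19:46304688-46304717 and chr19:46304716-46304745, where the first match reads the same on both strands and overlaps a further match shifted by 1 base. The second window adds chr19:46305449-46305478, with a match on the opposite strand that begins at position -236 from its start. It overlaps the last window, and both hold the match of chr19:46305695-46305724, at positions 10 and -225 from their starts.

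Nfkb2 first window, first stretch: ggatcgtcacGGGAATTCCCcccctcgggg
Nfkb2 first window, second stretch: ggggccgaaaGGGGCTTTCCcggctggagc
Nfkb2 stretch of the second window: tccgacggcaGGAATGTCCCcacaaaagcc
Nfkb2 stretch of the overlap: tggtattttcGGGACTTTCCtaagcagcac

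No match was found in the windows of Birc3, Il18 and Il1b. Birc3 and Il18 were also lower at the high than the low dose after exposure, so that difference was not particular to genes with a match. A match describes the letters only, and no binding was measured in these samples.

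After exposure, 7 of the 9 genes were lower in high-dose than in low-dose blood: Cd40, Cd83, Nfkbia, Birc3, Relb, Il18 and Tnfaip3. All 9 had negative differences, with a median of -0.27 on the log2 scale against -0.03 over all genes tested. Cd40, the receptor through which helper T cells license B cells and antigen-presenting cells, differed most, by -0.57 ± 0.08 (log2 difference ± SE). By the same limma fit 18.7% of all genes passed an adjusted p of 0.05 in this comparison, and 8 of the 9 genes had an unadjusted p under 0.05. In blood, fewer cells of a type and less RNA per cell cannot be told apart.

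B cell and monocyte markers moved in the same direction in the same arrays. Between the high and the low dose after exposure, 10 of 11 B cell markers and 10 of 12 monocyte markers were lower. The B cell marker level, the mean of the markers relative to all arrays, was -0.72 ± 0.27 (SD, n = 15, lowest -1.09, highest -0.11) at the high dose. At the low dose it was -0.03 ± 0.24 (SD, n = 15, lowest -0.47, highest 0.46). The monocyte level was -0.28 ± 0.15 (lowest -0.52, highest -0.04) against 0.04 ± 0.15 (lowest -0.17, highest 0.34). Markers of other cell types passed as well, and their counts are to be read beside the 18.7% of all genes that passed. Platelet markers went the other way, with 8 of 11 higher at the high dose and a level of 0.13 ± 0.18 (lowest -0.24, highest 0.42) against -0.18 ± 0.17 (lowest -0.66, highest 0.07). Of the erythroid markers 2 of 10 were higher, and of the neutrophil and dendritic cell markers 2 of 10 and 2 of 8 were lower. These shares were close to that of all genes. Of 10 T cell markers 1 was higher and 1 lower, and of 8 eosinophil and basophil markers 1 was lower. Of 8 NK cell markers 0 passed. The part of the platelet, erythroid, neutrophil and dendritic cell markers in these differences was not tested. With both marker means as covariates, 1 of the 9 genes passed, and it was none of the 7. That gene was Nfkb2 on its brighter probe set, at -0.45 ± 0.12 (adjusted p = 0.0205). Its dimmer probe set, which did not follow the brighter one, was not fitted with these covariates. With the B cell mean alone 0 passed at an adjusted p of 0.05 in limma, and with the monocyte mean alone 2 passed, Cd40 (-0.31 ± 0.09, adjusted p = 0.038) and Nfkb2 (-0.41 ± 0.11, adjusted p = 0.0419). With the 18S mean as a covariate 3 of the 7 stayed past the threshold, Cd40, Cd83 and Nfkbia, and the same 3 did so with the hybridisation controls.

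**Figure D1:**
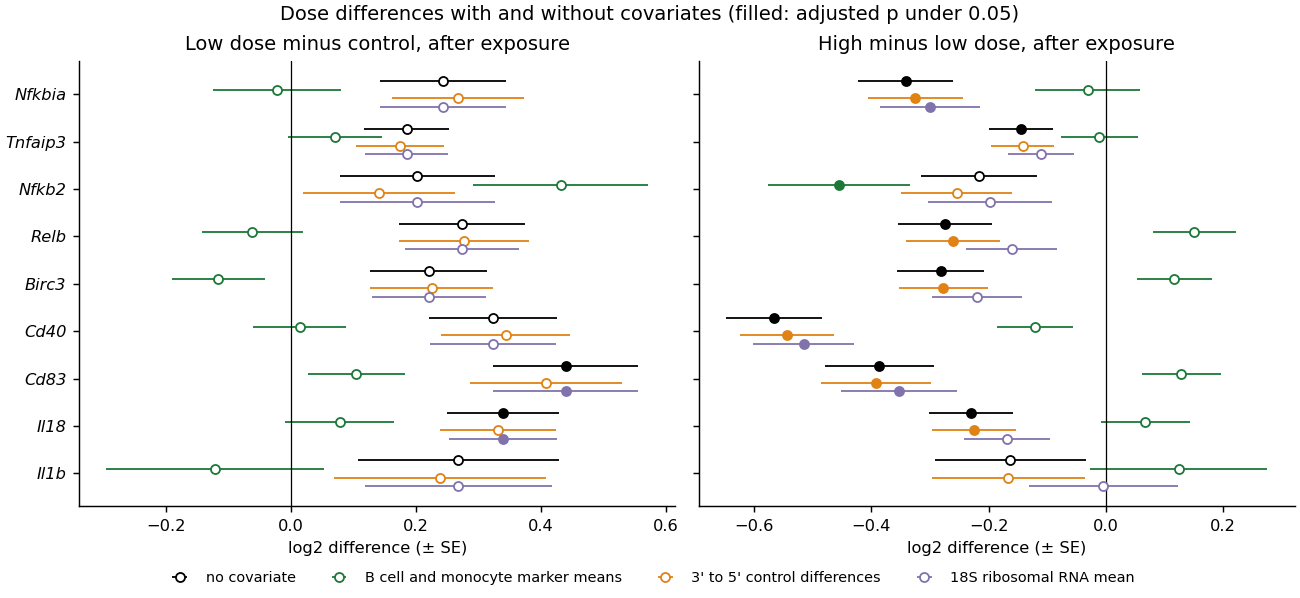
Log2 differences ± SE of the 9 genes after exposure, low dose minus control (left) and high minus low dose (right), without covariates (black) and with B cell and monocyte marker means (green), 3' to 5' control differences (orange) or the 18S mean (purple); filled points passed an adjusted p of 0.05. With the marker means 1 green point is filled, Nfkb2 on its brighter probe set at -0.45 on the right, and the others lie between -0.12 and 0.15 there.

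**Figure D2:**
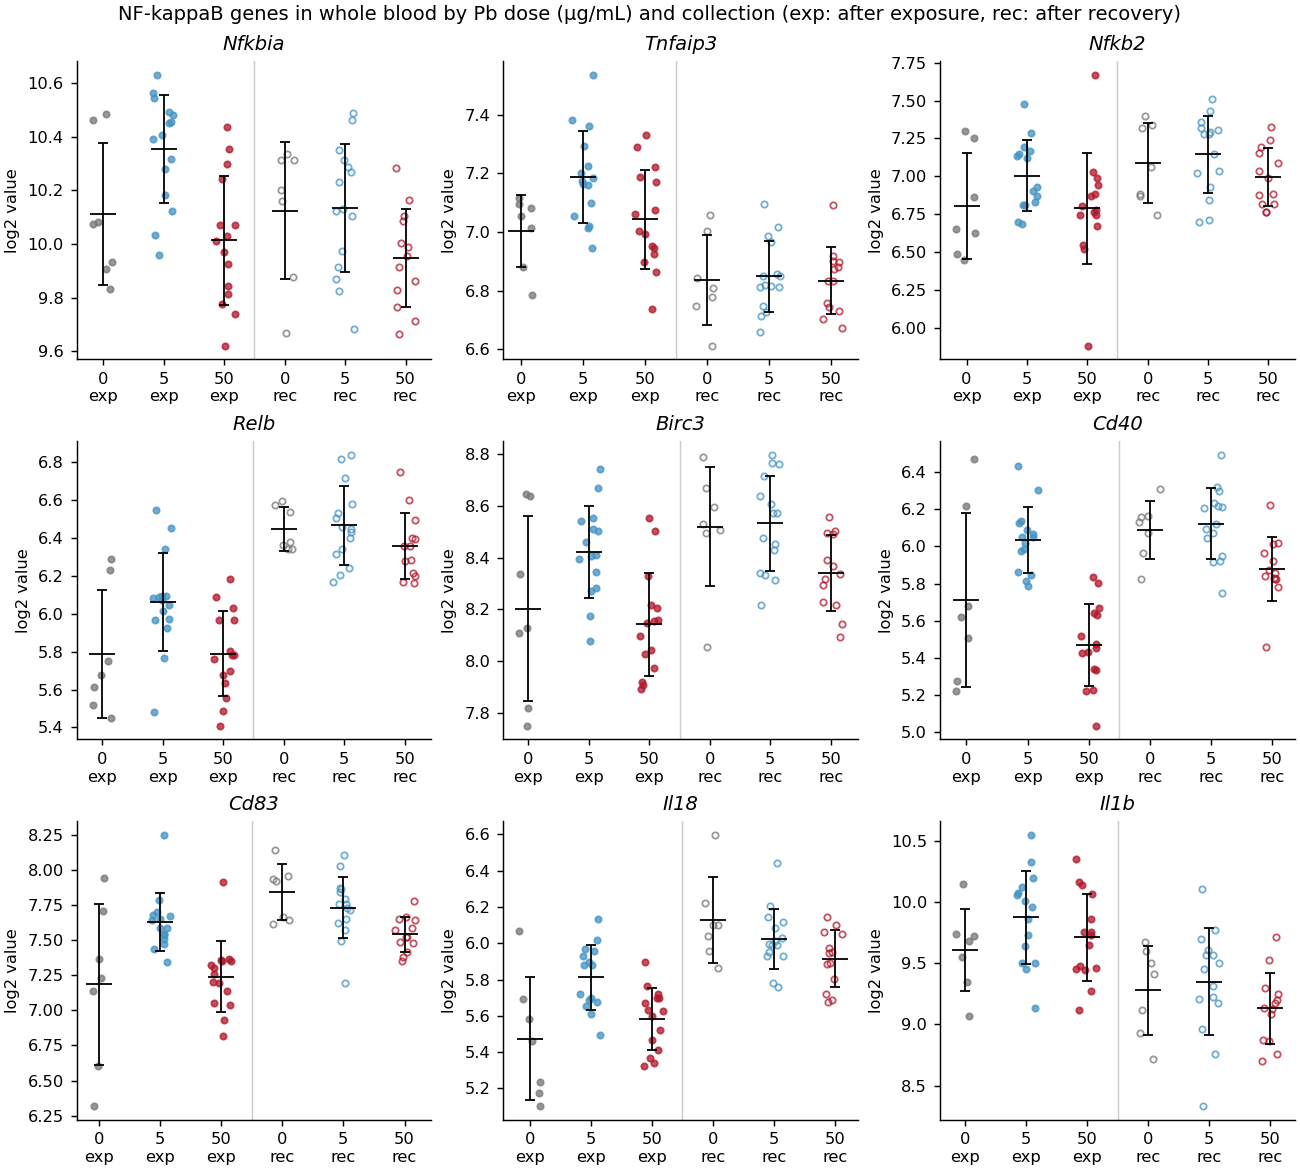
Log2 values of the 9 genes in 72 arrays by Pb dose (0, 5 and 50 µg/mL) and collection; points are arrays, filled after exposure and open after recovery, and bars show the mean ± SD. After exposure the low-dose arrays of Cd40 (5.79 to 6.43) lie above 13 of the 15 high-dose arrays, while the 7 control arrays spread across both groups.

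Nfkbia encodes IkappaBalpha, the inhibitor that NF-kappaB induces within minutes and that returns it to the cytoplasm. After exposure its 15 low-dose arrays ran from 9.96 through a median of 10.41 to 10.63. The 15 high-dose arrays ran from 9.62 through 10.01 to 10.44, and the 7 controls from 9.83 through 10.08 to 10.49. The groups overlapped, with 6 of 15 high-dose arrays below every low-dose array. The high dose was lower than the low dose by -0.34 ± 0.08 (adjusted p = 0.00215). Neither dose differed past the threshold from control, where the differences were 0.24 ± 0.10 at the low dose (adjusted p = 0.268) and -0.10 ± 0.10 at the high dose (adjusted p = 0.802). The other 4 probe sets of Nfkbia gave -0.33, -0.31, -0.28 and -0.06 between the doses, the last from the dimmest.

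Tnfaip3 encodes A20, a ubiquitin-editing enzyme that shuts down signalling from tumour necrosis factor and Toll-like receptors. After exposure the low-dose arrays lay between 6.95 and 7.54 with a median of 7.18. The high-dose arrays lay between 6.74 and 7.33 (median 7.00) and the controls between 6.79 and 7.12 (median 7.05). Most low-dose arrays, 10 of 15, lay above every control, yet the difference of 0.18 ± 0.07 did not pass (adjusted p = 0.179). The high dose was lower than the low dose by -0.14 ± 0.05 (adjusted p = 0.0486), a call that was kept in 11 of 30 fits with 1 array left out (adjusted p from 0.0204 to 0.106). Its second probe set, above the low-value threshold in 7 arrays only, gave 0.05 ± 0.08.

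Among the subunits, Relb encodes the partner of the processed Nfkb2 product in the non-canonical branch. After exposure the low-dose arrays of Relb ran from 5.48 through a median of 6.07 to 6.55, the high-dose arrays from 5.41 through 5.78 to 6.19, and the controls from 5.45 through 5.68 to 6.29. The ranges overlapped, with 1 of 15 high-dose arrays below every low-dose array, while the low-dose arrays reached higher. The high dose was lower than the low dose by -0.27 ± 0.08 (adjusted p = 0.0127).

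Nfkb2 encodes the precursor p100, which is itself an inhibitor until it is processed. Its high-dose arrays after exposure ran from 5.88 through 6.78 to 7.67, a wider range than the 6.69 to 7.48 of the low dose (median 6.93), and the difference of -0.22 ± 0.10 did not pass (adjusted p = 0.107). It passed without replicate 2 of the high-dose group (-0.28, adjusted p = 0.0239). Its 2 probe sets did not follow each other. Their residuals from the group means correlated at -0.13 over the 72 arrays, and those of the brighter correlated at -0.29 with the B cell marker level where those of the dimmer correlated at 0.75. The dimmer probe set gave -0.27 ± 0.07 between the doses (adjusted p over all probe sets = 0.00629). Statements on Nfkb2 therefore differ by probe set.

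Birc3 encodes cIAP2, a ubiquitin ligase that protects cells from death after tumour necrosis factor and restrains the non-canonical branch. The low-dose arrays after exposure lay between 8.08 and 8.74 with a median of 8.41, against 7.89 to 8.55 with a median of 8.15 at the high dose. The high dose was lower by -0.28 ± 0.07 (adjusted p = 0.00573), with 6 of 15 high-dose arrays below every low-dose array. The 7 controls spanned 7.75 to 8.64 and covered most of both groups. The second probe set of Birc3 gave -0.32 ± 0.10 (adjusted p over all probe sets = 0.0248).

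The surface molecules Cd40 and Cd83 had the largest differences. The low-dose arrays of Cd40 after exposure ran from 5.79 through a median of 6.05 to 6.43, and the high-dose arrays from 5.03 through 5.45 to 5.84. The ranges barely met, with 13 of 15 high-dose arrays below every low-dose array (-0.57 ± 0.08, adjusted p = 8.72e-07). The 7 controls ran from 5.22 through 5.62 to 6.47, wider than either dosed group. The high dose differed from control by -0.24 ± 0.10 (unadjusted p = 0.0201, adjusted p = 0.436) and the low dose by 0.32 ± 0.10 (adjusted p = 0.0989), so neither passed. The other 2 probe sets of Cd40 gave -0.58 ± 0.09 and -0.55 ± 0.12 between the doses.

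Cd83 encodes a surface protein of activated B cells and mature dendritic cells that stabilises MHC class II. Its low-dose arrays after exposure ran from 7.34 through 7.59 to 8.25, its high-dose arrays from 6.81 through 7.26 to 7.91, and its controls from 6.32 through 7.23 to 7.94. The high dose was lower than the low dose by -0.39 ± 0.09 (adjusted p = 0.00244), with 10 of 15 high-dose arrays below every low-dose array. Cd83 was also higher at the low dose than in controls, by 0.44 ± 0.12 (adjusted p = 0.0338), although the controls (SD 0.57) varied more than the low-dose arrays (SD 0.21) and 1 of 15 low-dose arrays lay above every control. This call was lost after centring the arrays on their medians (adjusted p = 0.0691), with only the compared arrays (0.132) and with the 3' to 5' control differences as covariates (0.0724).

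Il18 encodes a cytokine of the interleukin-1 family that is released after cleavage by caspase-1 and drives interferon-gamma in T and NK cells. After exposure the low-dose arrays ran from 5.49 through 5.88 to 6.14, the high-dose arrays from 5.32 through 5.62 to 5.90, and the controls from 5.10 through 5.46 to 6.07. Il18 was higher at the low dose than in controls, by 0.34 ± 0.09 (adjusted p = 0.0338, 1 of 15 arrays above every control), and lower at the high dose than at the low, by -0.23 ± 0.07 (adjusted p = 0.018). Il1b, the classical inflammatory cytokine of monocytes and neutrophils, ran from 9.13 through 9.96 to 10.55 at the low dose, from 9.12 through 9.73 to 10.35 at the high dose and from 9.07 through 9.68 to 10.15 in controls. These ranges lay on top of each other, and neither the difference between the doses (-0.16 ± 0.13, adjusted p = 0.368) nor that of the low dose from control (0.27 ± 0.16, adjusted p = 0.529) passed.

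In the comparison of the low dose with control after exposure, Cd83 and Il18 were the 2 of 9 genes that passed, where 1.3% of all genes did. All 9 differences were positive, with a median of 0.27 against 0.00 over all genes, and 7 genes had an unadjusted p under 0.05. Of the cell markers, 4 of 11 B cell genes and 5 of 12 monocyte genes were higher at the low dose, and the B cell level of the 7 controls was -0.47 ± 0.69 (lowest -1.47, highest 0.43), the widest of the 6 groups. With both marker means as covariates 0 of the 9 genes passed in limma, and the differences of Cd83 and Il18 were 0.10 ± 0.08 (adjusted p = 0.351) and 0.08 ± 0.09 (adjusted p = 0.54). The count was also 0 after centring the arrays, with only the compared arrays and with the 3' to 5' differences as covariates, and it was 7 with array weights. For Il18 the adjusted p was 0.0604, 0.097 and 0.0511 under the first 3 of these. Without control replicate 2, 5, 6 or 7, or without low-dose replicate 3, 9 or 14, neither gene passed. Without control replicate 4 or low-dose replicate 2 or 15, Il18 alone was lost (Cd83 adjusted p from 0.00141 to 0.252 and Il18 from 0.00111 to 0.2 over 22 such fits). Without control replicate 3 the count was 4, with Relb and Cd40 joining, and Cd40 also passed without control replicate 1.

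The high dose did not differ past the threshold from control after exposure for any of the 9 genes. In limma 0 passed an adjusted p of 0.05 and 1, Cd40, had an unadjusted p under 0.05, where 0.0238% of all genes passed. The count was 0 under every alternative run. The differences of the other 8 genes lay between -0.10 and 0.11, and their 95% confidence intervals reached from -0.30 (Nfkbia) to 0.42 (Il1b). The low-dose means lay above the control means for all 9 genes, and the low-dose group enters both comparisons after exposure that gave calls.

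**Figure D3:**
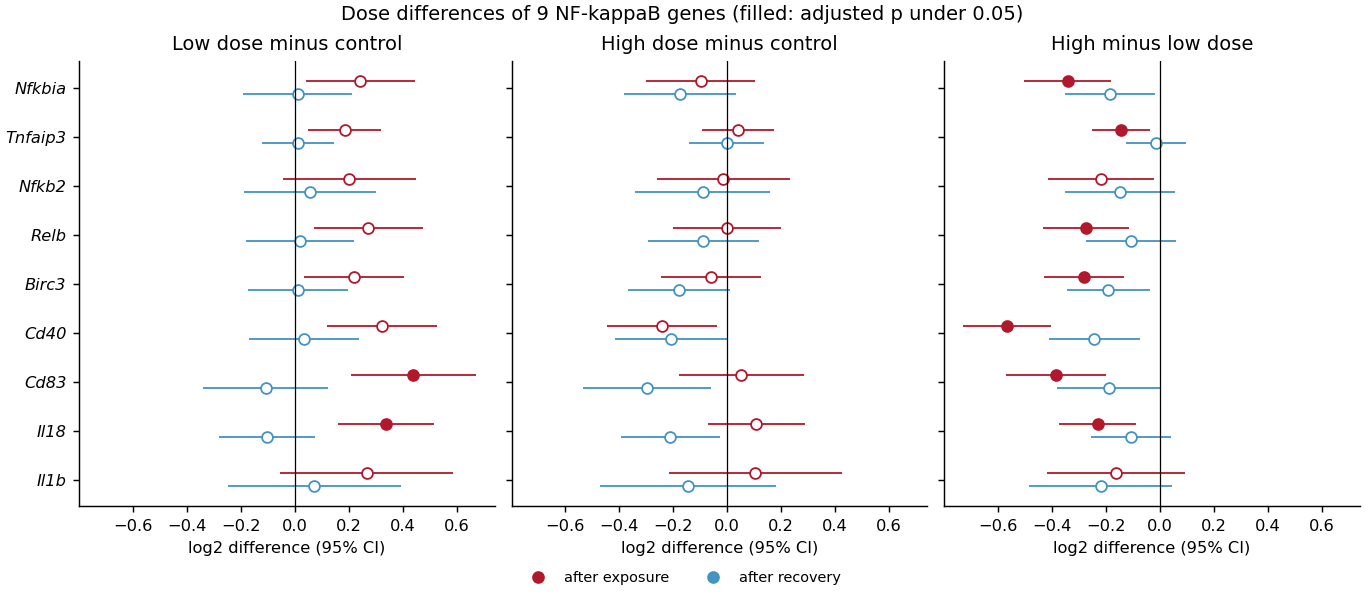
Log2 differences with 95% confidence intervals for the 9 genes, in panels for low dose minus control, high dose minus control and high minus low dose, red after exposure and blue after recovery; filled points passed an adjusted p of 0.05. Filled points are found after exposure only, 2 in the left panel (Cd83, Il18) and 7 in the right.

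After recovery no comparison of doses gave a call among the 9 genes. In limma the high dose against control gave 0 at an adjusted p of 0.05 and 2 at an unadjusted p under 0.05 (0.429% of all genes passed), namely Cd83 (-0.30 ± 0.12, adjusted p = 0.322) and Il18 (-0.21 ± 0.09, adjusted p = 0.371). All 9 differences were negative, with a median of -0.18 against -0.03 over all genes. Cd83 lay between 7.35 and 7.78 (median 7.53) in the 13 high-dose arrays and between 7.62 and 8.14 (median 7.92) in the 7 controls, with 9 of 13 high-dose arrays below every control. Il18 lay between 5.67 and 6.14 (median 5.95) and between 5.86 and 6.60 (median 6.10).

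The low dose against control after recovery gave 0 genes at an adjusted p of 0.05 and 0 at an unadjusted p under 0.05 in limma (0% of all genes passed), and the differences lay between -0.11 and 0.07. The high against the low dose gave 0 at an adjusted p of 0.05 and 3 at an unadjusted p under 0.05 (0% of all genes passed), namely Cd40 (-0.24 ± 0.08), Birc3 (-0.19 ± 0.08) and Nfkbia (-0.19 ± 0.08). All 9 differences between the doses were again negative, with a median of -0.19 against -0.02 over all genes. Cd40 ran from 5.46 through 5.85 to 6.22 at the high dose and from 5.75 through 6.12 to 6.49 at the low dose. The B cell level was 0.25 ± 0.19 (SD, n = 13) at the high dose, 0.52 ± 0.22 (SD, n = 15) at the low dose and 0.52 ± 0.22 (SD, n = 7) in controls.

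Whether the dose effect changed between the collections was tested as an interaction. For the high dose 0 of the 9 genes passed in limma (0.00794% of all genes did) and 2 had an unadjusted p under 0.05, Cd83 (-0.35 ± 0.17) and Il18 (-0.32 ± 0.13). For the low dose 0 passed (0.0238% of all genes did) and the same 2 genes had an unadjusted p under 0.05, Il18 (-0.44 ± 0.13, adjusted p = 0.0981) and Cd83 (-0.55 ± 0.16, adjusted p = 0.111). Without control replicate 1 of the exposure collection Il18 passed (adjusted p = 0.0296), and without control replicate 3 Cd83 did (adjusted p = 0.0413). With array weights, which give less weight to arrays that fit the model poorly, 4 of the 9 passed, all with negative values: Cd83 (adjusted p = 0.00336), Il18 (0.00437), Cd40 (0.0243) and Birc3 (0.0422). Whether the low-dose difference changed during recovery thus depended on the weighting for these genes.

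Between the collections the genes moved apart. Relb, Il18, Cd83, Cd40 and Birc3 were higher after recovery in controls, and Relb and Il18 were higher in all 3 dose groups. Il1b and Tnfaip3 were lower after recovery in both dosed groups. Among the controls 5 of 9 genes passed, where 36.1% of all genes did, and all 5 were higher. At the low dose 5 of 9 passed, 2 higher and 3 lower (44.1% of all genes), and at the high dose 7 of 9 passed, 5 higher and 2 lower (49.2% of all genes). In each of these comparisons a large share of all genes passed, and the counts are given beside it.

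Relb rose in every dose group. The 7 recovery controls lay between 6.34 and 6.60 (median 6.38), all above the 7 exposure controls (0.66 ± 0.12, adjusted p = 1.03e-05). At the high dose the recovery arrays lay between 6.16 and 6.75 (median 6.36), with 11 of 13 above every exposure array (0.57 ± 0.08, adjusted p = 5.13e-08), and at the low dose between 6.17 and 6.84 (0.40 ± 0.08, adjusted p = 3.18e-05). Il18 rose by 0.65 ± 0.10 in controls (adjusted p = 1.55e-06), by 0.21 ± 0.07 at the low dose (adjusted p = 0.0131) and by 0.33 ± 0.07 at the high dose (adjusted p = 0.000143).

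Cd83 rose by 0.65 ± 0.14 in controls (adjusted p = 0.00011) and by 0.30 ± 0.10 at the high dose (adjusted p = 0.00697), while at the low dose the difference was 0.11 ± 0.09 (adjusted p = 0.359). Cd40 rose by 0.37 ± 0.12 in controls (adjusted p = 0.0107, lost without exposure control replicate 5 or 6) and by 0.41 ± 0.08 at the high dose (adjusted p = 4.7e-05). Birc3 rose by 0.32 ± 0.11 in controls (adjusted p = 0.018, lost without exposure control replicate 5 or 6 or recovery control replicate 2) and by 0.20 ± 0.08 at the high dose (adjusted p = 0.0274, lost without recovery replicate 2 of that group).

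Il1b and Tnfaip3 went the other way. Il1b after recovery lay between 8.33 and 10.11 (median 9.45) at the low dose and between 8.70 and 9.71 (median 9.13) at the high dose. It fell by 0.52 ± 0.13 (adjusted p = 0.000544) and by 0.58 ± 0.13 (adjusted p = 0.000206), and in controls the difference was -0.33 ± 0.19 (adjusted p = 0.157). Tnfaip3 fell by 0.34 ± 0.05 at the low dose, with 11 of 15 recovery arrays below every exposure array (adjusted p = 4.24e-07), and by 0.21 ± 0.06 at the high dose (adjusted p = 0.00132), and in controls the difference was -0.17 ± 0.08 (adjusted p = 0.0864). Recovery arrays of Tnfaip3 had medians of 6.81 in controls, 6.82 at the low dose and 6.83 at the high dose, so the 3 groups lay together.

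B cell markers were higher after recovery as well, 11 of 11 in controls, 10 of 11 at the low dose and 11 of 11 at the high dose, and their level went from -0.47 ± 0.69 to 0.52 ± 0.22 in controls. Monocyte markers were higher too, 10, 5 and 9 of 12 in the same order, with 1 lower at the low dose. Erythroid markers went down, 7, 8 and 8 of 10, with a level of 0.20 ± 0.29 (lowest -0.16, highest 0.63) after exposure and -0.40 ± 0.28 (lowest -0.74, highest -0.07) after recovery in controls. Of 11 platelet markers 6 were lower and 1 higher in controls, 1 lower and 4 higher at the low dose, and 2 lower and 3 higher at the high dose. Neutrophil markers were higher in 2, 3 and 5 of 10. The part of the erythroid, platelet and neutrophil markers in the genes' differences was not tested. With both marker means as covariates the differences of Cd40, Cd83 and Birc3, all above 0 without them, were below 0 in all 3 dose groups, with Cd83 at -0.30 ± 0.06 at the low dose (adjusted p = 6.52e-05) and -0.42 ± 0.08 at the high dose (adjusted p = 3.99e-05). Relb was then at 0.02, 0.10 and 0.00 in controls, low dose and high dose. Il1b and Tnfaip3 stayed below 0, and at the high dose they gave -0.89 ± 0.18 and -0.38 ± 0.08. At the high dose the B cell level ran from -1.09 to -0.11 after exposure and from 0.005 to 0.66 after recovery. These ranges did not meet, so the values with covariates there extend the fit beyond any shared level. They cannot tell the collection and the B cell level apart.

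Probe sets disagreed on the collections more than on the doses. Nfkbia fell by 0.22 ± 0.08 at the low dose on its brightest probe set (adjusted p = 0.0222, lost without recovery replicate 2 of that group), and another gave -0.37 ± 0.09. The second brightest gave 0.19 ± 0.09 at the low dose, 0.25 ± 0.09 at the high dose and 0.38 ± 0.13 in controls. No direction between the collections is therefore given for Nfkbia. The dimmer probe set of Birc3 rose by 1.07 ± 0.15 in controls, 0.86 ± 0.10 at the low dose and 1.09 ± 0.11 at the high dose, where the brighter gave 0.32, 0.11 and 0.20. The dimmer probe set of Nfkb2 rose by 0.61 ± 0.10, 0.48 ± 0.07 and 0.63 ± 0.07, where the brighter gave 0.28, 0.14 and 0.21 without passing. The part of the 3' to 5' difference of the collections in these gaps was not tested by probe set.

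**Figure D4:**
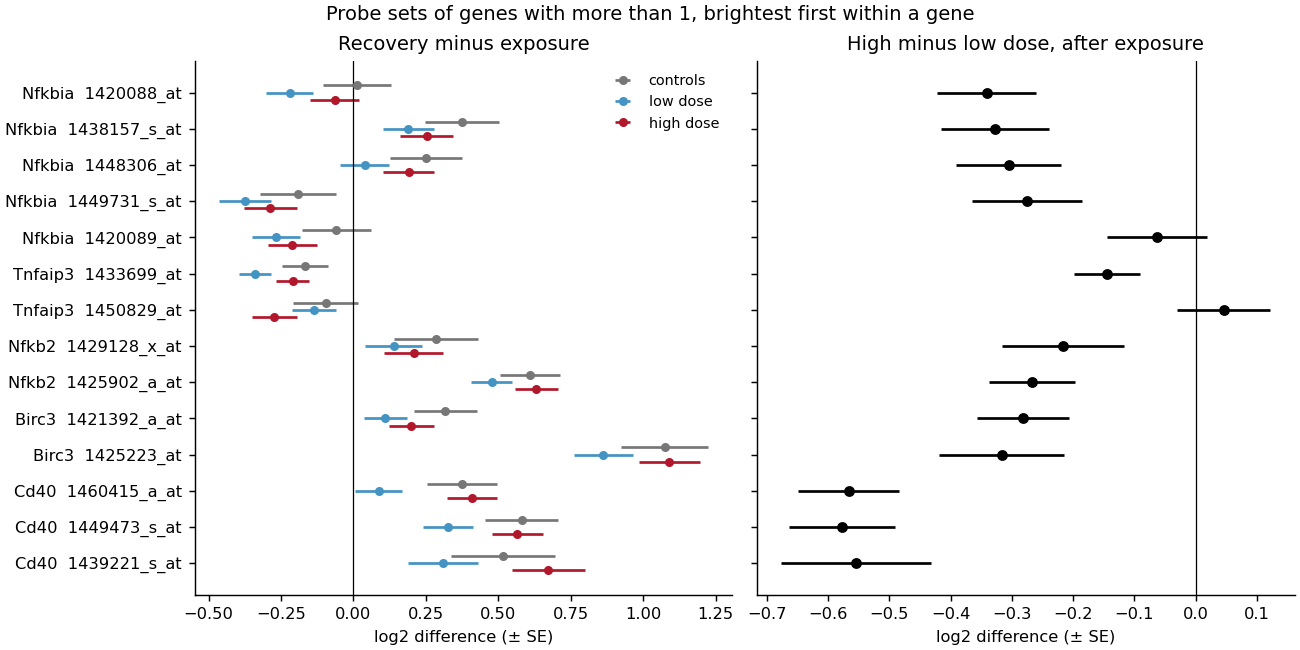
Log2 differences ± SE of each probe set of the 5 genes with more than 1, for recovery minus exposure (left, grey controls, blue low dose, red high dose) and for high minus low dose after exposure (right). The probe sets of Nfkbia fall on both sides of 0 on the left, while on the right all but the dimmer probe set of Tnfaip3 lie below 0.

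How the genes varied from array to array within groups is given by the residuals from the 6 group means over 72 arrays, as a description in which all genes share the same libraries. Residuals of Cd83, Cd40, Relb and Birc3 followed the B cell marker level, at r = 0.85, 0.82, 0.73 and 0.72. Those of Il18 (0.55), Nfkbia (0.50) and Tnfaip3 (0.35) did so less closely. Il1b correlated at 0.16 with the B cell level and at 0.70 with the neutrophil level. Nfkbia and Tnfaip3 were closest to the T cell level, at 0.64 and 0.48. Relb also correlated at 0.63 with the T cell level and Birc3 at 0.65 with the monocyte level. With the level of the skin, muscle and salivary gland genes, Relb correlated at -0.67, Nfkbia at -0.60 and Birc3 at -0.56. Cd83 gave -0.48 there, Tnfaip3 -0.47, Cd40 -0.46, Il1b -0.42, Il18 -0.20 and Nfkb2 0.21. The part of these levels in the residuals was not tested.

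Between the genes themselves, Nfkbia correlated at 0.72 with Birc3 and at 0.71 with Tnfaip3, and Birc3 at 0.70 with Cd83. Il18 and Tnfaip3 had almost no relation (0.01). Nfkb2, on its brighter probe set, correlated negatively with each of the other 8, down to -0.53 with Birc3.

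**Figure D5:**
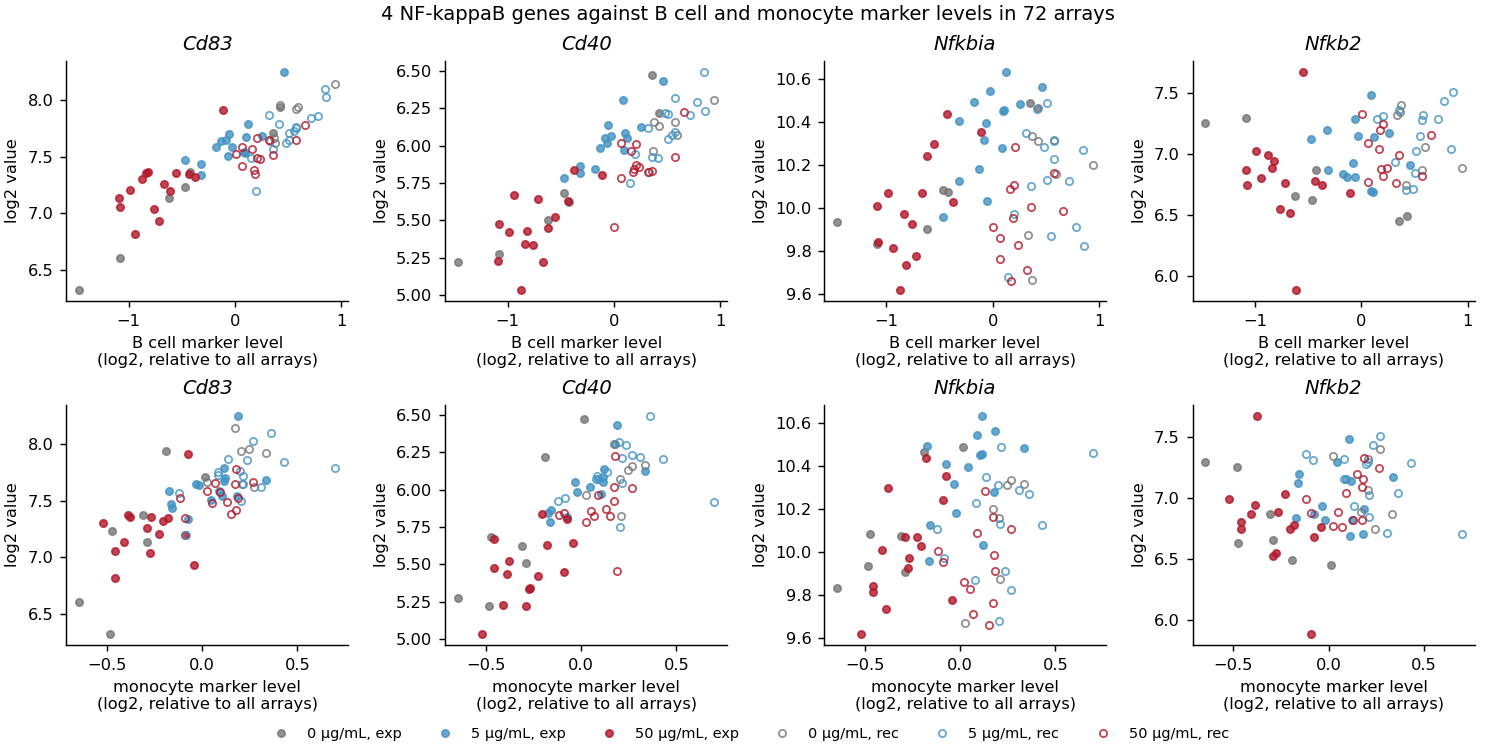
Log2 values of Cd83, Cd40, Nfkbia and Nfkb2 (columns) against the B cell (top) and monocyte (bottom) marker level in 72 arrays, coloured by dose and filled after exposure. For the values shown, r with the B cell level was 0.86 for Cd83, 0.86 for Cd40, 0.28 for Nfkbia and 0.23 for Nfkb2. For residuals from the group means, which are not drawn, r was 0.85, 0.82, 0.50 and -0.29 in the same order.

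For each gene the 3 genes with the most similar residuals were listed. For Cd83 they were the BAFF receptor gene Tnfrsf13c (r = 0.88), Cyb561a3 (0.87) and the B cell receptor subunit Cd79b (0.87). For Cd40 they were the MHC class II gene H2-Eb1 (0.83), the B cell adaptor Blnk (0.83) and the B cell co-activator Pou2af1 (0.81). For Birc3 they were the kinase gene Prkcb (0.87), Ccdc50 (0.84) and Fchsd2 (0.84). For Relb they were Arhgap25, Commd4 and the kinase gene Map4k1 (each 0.86).

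The inhibitors and cytokines had other neighbours. Nfkbia was closest to Tbk1 (0.88), a kinase related to the IkappaB kinases, Khdc4 (0.88) and Dock10 (0.87), and Tnfaip3 to Ice1 (0.76), the NF-kappaB repressing factor gene Nkrf (0.76) and the chemokine receptor Cxcr4 (0.74). Il1b was closest to the iron exporter Slc40a1 (0.95), Gcnt2 (0.92) and the transcription factor Cebpd (0.92). Il18 was closest to Ifi30 (0.69), Ly6d (0.68) and Pafah1b3 (0.67), and Nfkb2 to Appbp2os (0.68), Fscn1 (0.66) and Slc30a3 (0.65).

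The rest of the pathway was described with lists of 100 further genes, of which 78 were tested. Between the high and the low dose after exposure 5 were higher and 12 lower, a share close to the 18.7% of all genes that passed, and the median over the 78 was -0.08 against -0.03 over all genes. The counts by list that follow are to be read beside that share. Among receptors and adaptors Tnfrsf13c (-0.41 ± 0.10, adjusted p = 0.00425), the lymphotoxin receptor Ltbr (-0.21) and the Toll-like receptor Tlr2 (-0.26) were lower, 3 of 17. Among the kinases Tbk1 (-0.30) and Ikbkb (-0.22), a catalytic subunit of the IkappaB kinase complex, were lower, 2 of 10. Of the other Rel subunits Rela, the p65 subunit, was lower (-0.21, adjusted p = 0.031), 1 of 2. Of the other IkappaB proteins Nfkbie was lower (-0.44 ± 0.10, adjusted p = 0.0012), 1 of 5.

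Among 13 other feedback inhibitors 2 passed, both higher at the high dose, the deubiquitinase gene Otud7b (0.36, adjusted p = 0.0025) and Tollip (0.23, adjusted p = 0.0292). Among 21 other targets 3 were lower, Ccr7 (-0.26), a homing receptor of lymphocytes, and the co-stimulatory Cd86 (-0.17) among them, and 2 were higher, Csf1 (0.22), the macrophage growth factor, and Birc2 (0.31), the close relative of Birc3. In the interleukin-1 family machinery Casp1 (-0.26), the protease that cleaves both cytokines, and the pore-former Gsdmd (-0.25) were lower, and the decoy receptor Il1r2 was higher (0.53 ± 0.12, adjusted p = 0.00143), 3 of 10.

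Against control, Tlr7, a sensor of single-stranded RNA, was higher at the low dose after exposure (0.30 ± 0.08, adjusted p = 0.0319), and Otud7b was higher at the high dose after recovery (0.45 ± 0.11, adjusted p = 0.0444). Each was the only 1 of the 78 in its comparison, where 1.3% and 0.429% of all genes passed, so both are a description.

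Between the collections 25 of the 78 were higher and 6 lower after recovery in controls, 27 and 14 at the low dose, and 33 and 14 at the high dose. Of all genes 36.1%, 44.1% and 49.2% passed in these comparisons, so a large share of any list would pass, and the genes named are a description. Malt1, the paracaspase that relays antigen receptor signals, was higher in controls (0.98 ± 0.16) and at the high dose (0.82 ± 0.11). Other IkappaB genes were among the risers, with Nfkbie at 0.80 ± 0.14 in controls and 0.74 ± 0.10 at the high dose, and Rela rose by 0.51 ± 0.10 and 0.50 ± 0.07 in the same groups. Nfkbiz, an atypical IkappaB induced by interleukin-1, was lower at the high dose (-0.43 ± 0.10, adjusted p = 0.000181), as was the inflammasome gene Nlrp3 (-0.39 ± 0.08, adjusted p = 2.35e-05), while Gsdmd (0.51 ± 0.07) and Casp1 (0.48 ± 0.08) were higher.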

How the data were processed

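The authors deposited log2 values normalized with RMA (robust multi-array averaging), per the submitters' processing notes. Which RMA software was used is not given in the sources used here. Per the labels, blood RNA was depleted of globin transcripts, amplified and biotin-labelled before hybridisation. No further normalization was applied. Probe sets with exactly 1 symbol in the platform annotation (34945 of 45101, with 932 of several symbols and 9160 unlisted) were kept when they exceeded 4.14, the overall median, in 7 or more arrays. The probe set of highest mean stood for its gene, which left 12588 genes tested of 18193.

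A model of the 6 group means over all 72 arrays was fitted in limma 3.58.1 (statmod 1.5.0, R 4.3.3), with empirical Bayes moderation and Benjamini-Hochberg adjustment over all genes tested; "passed", "rose" and "fell" mean an adjusted p under 0.05. Differences are ± SE and group values mean ± SD. The fit was tested on simulated data. Samples are grouped by title, and p-values measure the spread between these blood samples and treat both collections of a mouse as independent. Arrays counted as above or below a group lay outside its whole range. Marker levels are means of the marker genes after subtracting each gene's mean over all arrays. The number of arrays limits the precision.

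The genes, pathway lists and marker lists were chosen with earlier results of these data known. All 9 genes with a probe set are named. Of each pathway list up to 4 genes with the smallest p are named in a comparison where any passed, and for each gene the 3 genes of highest residual correlation. Alternatives covered scaling, filters, array weights, covariates, the choice of probe set and left-out arrays. The 18S, hybridisation and single marker covariates, and leaving out the arrays of wide relative log expression, were chosen after seeing the data.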

Additional observations from a re-analysis of the deposited data

Results flagged for a closer look

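In 22 sets of values from the 2 groups of 7 arrays, each set of 7 was examined for a lowest or highest array far from the rest, and 2 were found, where chance gives about 1 in 20 sets. Birc3 in recovery control replicate 4 was 8.05, the lowest of its group, with the others from 8.49 upwards. The B cell marker level in recovery control replicate 5 was 0.945, the highest of its group, with the next at 0.598. Leaving out either array changed no call of Birc3, Cd83 or Cd40 between the collections in controls.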

How the results depend on the processing

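Quantile normalization, cyclic loess, both other filters, moderation with trend and the mean of all probe sets kept the count of genes called within 1.5 times in every comparison. The low dose against control after exposure, with 2 genes called, was the least stable: 0 passed after centring the arrays, with only the compared arrays, with the marker means together or singly, and with the 3' to 5' differences, and 7 passed with array weights. Leaving out 1 array gave 0 to 4. Between the doses after exposure (7 called) the count was 1 with both marker means, 0 with the B cell mean, 2 with the monocyte mean, and 3 with the 18S or the hybridisation mean. Array weights gave 1 for the doses after recovery and 4 for the low-dose interaction, which was 0 to 1 with 1 array left out. Between the collections in controls (5 called) 3 passed with only the compared arrays, 2 with the B cell mean and 3 with the monocyte mean. The cause was not tested.

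Residuals of same-numbered arrays of both collections correlated above 0.1 in 3 of 7 control, 7 of 15 low-dose and 4 of 13 high-dose pairs. In the same order 1, 3 and 0 arrays correlated best with their own number. Such correlations cannot tell whether a number stands for the same mouse in both collections. With a replicate block 1 gene passed at the low dose against control after exposure, neither Cd83 nor Il18, and 6 between the doses. The other counts did not change. For comparisons of doses this block was the replicate number as a factor across different mice. For the other comparisons it was the number within a dose. Only 7 numbers had both a low-dose and a control array, so the other low-dose arrays did not inform that difference.

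Signs turned mainly under the marker covariates, listed as both means, then B cell, then monocyte mean where each turned. Between the doses after exposure these were Relb 0.15, 0.10 and 0.0037, Birc3 0.12 and 0.055, Cd83 0.13 and 0.12, and Il18 0.068 and 0.014. Between the collections in controls they were Birc3 -0.29, -0.16 and -0.15, Cd40 -0.27, -0.23 and -0.046, Cd83 -0.087 and -0.073, and Nfkbia -0.46 with both. At the low dose they were Birc3 -0.17 and -0.16, Cd40 -0.26 and -0.26, and Cd83 -0.30 and -0.30. At the high dose they were Birc3 -0.32, -0.27 and -0.13, Cd40 -0.21 and -0.19, Cd83 -0.42, -0.41 and -0.013, and Il18 -0.054 and -0.013. There the B cell levels of the collections did not overlap, so the collection and that level cannot be told apart. Other probe sets turned Tnfaip3 between the doses after exposure (0.046) and Nfkbia between the collections, at 0.19 and 0.039 at the low dose and 0.25 at the high dose.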
